A study of Homo sapiens with 27 samples.

Results

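The transcriptome of human embryonic stem cells of the H1 line was compared between 2 recombinant laminin coatings at day 2 of culture, when the cells were labelled undifferentiated. The comparison held 6 of the 27 libraries of the series, chosen by their labels: 3 libraries named LN323 and 3 libraries named LN521. The 3 LN523 libraries of day 2 entered the same fit and are given beside the results, and the libraries of days 22 and 32 were used only to follow the same genes. All groups came from H1 cells over one range of passages, grown before the experiment on LN521 and kept for these days in a stem cell medium without the induction agents added afterwards. For the LN323 wells the labels give LN323 and the study's methods give LN323 mixed with LN521, whereas for the LN521 wells the labels give both proteins and the methods give LN521 alone. The groups are therefore called by their names only, and no difference can be tied to a single laminin chain. The question of the comparison was which genes differed between the coatings before differentiation was induced, and none of the libraries came from cells without a coating.

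Laminins are proteins of the basement membrane, each made of an α, a β and a γ chain, and they are named after these chains: LN323 holds the α3, β2 and γ3 chains, LN521 the α5, β2 and γ1 chains, and LN523 the α5, β2 and γ3 chains. The LN323 and LN523 proteins were secreted by clonal lines of HEK293, a human embryonic kidney line, that carried the chain genes. Cells hold on to laminins through integrins such as the pair of the ITGA6 and ITGB1 chains, through dystroglycan, and through syndecans and BCAM. Pluripotent stem cells divide quickly, spend much of their cycle in S phase, when DNA is copied and histone mRNA is made, and depend on FGF, which signals through ERK and switches on its own feedback inhibitors.

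The cells of all 6 libraries carried the markers of pluripotent cells. The level of POU5F1 was 1529 to 2243 CPM and that of LIN28A was 2361 to 3787 CPM, where CPM, computed with edgeR, scales a count to the size of its library after TMM normalisation. The defining markers checked for mesendoderm (such as TBXT, SOX17 and MIXL1), neuroectoderm (such as PAX6 and SOX1), surface ectoderm, neural crest, endothelium and blood were at or under 1.92 CPM in each library. Other genes of the wider lists were higher in these cells, among them SOX21 at up to 118 CPM, FEZF1 at up to 34.3 CPM and KDR at 160 to 307 CPM. Of the neuronal markers, DCX reached 22.5 CPM and STMN2 reached 16.7 CPM. Total counts were 30577756 to 47195638 in the 6 libraries, and their number of detected genes was 26203 to 32067, highest in LN521 replicate 1. LN323 replicate 2 stood apart from the other 2 LN323 libraries. In a principal component analysis of 11792 genes it had a weight of -0.19 on the first component, which held 50.9% of the variance, against 0.40 and 0.54 for LN323 replicates 1 and 3 and -0.45 to -0.17 for the LN521 libraries. The LN523 libraries of day 2, which were part of it, also spread along this component, at 0.04, 0.36 and -0.32 for replicates 1, 2 and 3. LN521 replicate 3 also stood apart from its group: the mean chi-square per gene was 82.3 and 77.1 against LN521 replicates 1 and 2, which differed from each other by 26.9, and on the second component it had a weight of -0.35 against 0.67 and 0.49. LN323 replicate 2 differed from LN323 replicates 1 and 3 by 63.8 and 77.1, and these from each other by 14.7. The LN523 replicates differed from each other by 35.2 to 71.6. The counts of the leading groups are given below with libraries left out, and the choice to show LN323 replicate 2 left out together with another filter was made after seeing the data.

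On LN323, 436 genes were higher and 531 genes were lower than on LN521, which is 2.50% of the 38650 genes tested (1.13% higher and 1.37% lower). The test was the quasi-likelihood test of edgeR, with an adjusted p under 0.05, and fold changes are given as log2 of LN323 over LN521. An unadjusted p under 0.05 was found in 4401 of the 38650 genes. These shares of all genes are the ones to set beside the counts of list members below. Of the higher genes 412 were protein-coding and 12 were long non-coding RNAs, whereas of the lower genes 302 were protein-coding, 131 were long non-coding RNAs and 59 were pseudogenes. The median size of the change was 0.81 on the log2 scale for the higher genes and 1.43 for the lower genes. In 601 of the 967 genes (62.2%) the 2 groups of 3 libraries did not overlap, and in 366 they overlapped. The groups did not overlap in 14.7% of all genes tested and in 23.2% of those of at least 1 CPM. The 967 genes were called from these same libraries, so a higher share among them is built in and is no separate support.

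These counts depended on the filter and on single libraries. With the filter used here the fit gave each gene the spread of genes of like level in place of its own (the prior degrees of freedom were infinite), so that a gene with scattered replicates can pass. With the filterByExpr filter of edgeR, 0 of 21443 genes passed and 3116 had an unadjusted p under 0.05. DESeq2 passed 897 genes, of which 394 were shared with edgeR, and 32.7% of them were higher on LN323 against 45.1% by edgeR. Leaving out 1 library gave 124 genes (without LN323 replicate 1), 3439 (without LN323 replicate 2, 4.71% of genes higher and 4.29% lower), 247 (without LN323 replicate 3), 257 (without LN521 replicate 1), 633 (without LN521 replicate 2) and 689 (without LN521 replicate 3). Without LN323 replicate 2 the filterByExpr fit passed 2679 of 22803 genes, 1511 higher (6.63%) and 1168 lower (5.12%). LN323 replicate 2 was the LN323 library nearest to LN521 in 422 of the 436 higher genes and in 404 of the 531 lower genes. Both tools passed, with groups that did not overlap, 355 genes, 121 higher and 234 lower, and 51 of these 121 were replication-dependent histone genes. Nothing in the labels says that the 3 replicates of a group came from separate cultures, so the p-values measure only the spread between these libraries, which may be technical.

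The broadest group of higher genes was that of the replication-dependent histones, the core and linker proteins that package newly made DNA and whose mRNAs are made in S phase. Of 64 such genes tested, 53 were higher on LN323 and 0 were lower, against 1.13% higher and 1.37% lower among all genes. The 60 genes with at least 1 CPM on either matrix all had a positive fold change, with a median of 0.91 and a range of 0.00 to 1.79, whereas the median of all genes of that level was 0.02. All 5 classes took part: 5 of 6 linker H1 genes, 11 of 14 H2A genes, 16 of 18 H2B genes, 10 of 11 H3 genes and 11 of 15 H4 genes. The summed level of the 64 genes was 18305, 15340 and 17809 CPM in LN323 replicates 1, 2 and 3 and 8587, 10932 and 8794 CPM in LN521 replicates 1, 2 and 3. The groups did not overlap, and the ratio of the group means was 1.82. In the LN523 libraries the sum was 13979, 15483 and 12129 CPM, above each LN521 library, with LN523 replicate 2 within the range of LN323. The genes lie on chromosome 6 (52 genes between positions 25723397 and 27893891 of GRCh38), chromosome 1 (11 genes) and chromosome 12 (1 gene).

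The mRNAs of this group end in a stem-loop in place of a poly(A) tail, and the libraries were made from total RNA with rRNA removed, which keeps such mRNAs. The stem-loop is shown because it is what these transcripts share and the rule of the comparison did not use it. It was found by its consensus in the GENCODE 44 transcripts of 61 of the 64 genes, a median of 5 bases before the transcript end, and in 82 of the 62700 genes searched (0.131%). The commonest forms, with the loop in capitals and the number of histone genes that hold each, were:
Form in 36 genes: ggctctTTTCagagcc
Form in 10 genes: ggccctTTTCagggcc
Form in 9 genes: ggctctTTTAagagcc
Form in 4 genes: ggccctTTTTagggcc
The 3 genes in which the consensus was not found, H3C6, H4C13 and H2BC10, were also higher on LN323. Of the 7 other genes with this consensus and at least 1 CPM, the 2 that passed the threshold were H3-4 and H2AX, both histone genes and both higher.

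The H2B gene with the smallest p-value was H2BC14 (ENSG00000273703, chromosome 6, positions 27815022 to 27815489). Its level was 239, 161 and 219 CPM on LN323 and 97.8, 107 and 75.4 CPM on LN521. Each LN323 library lay above each LN521 library, with LN323 replicate 2 the nearest. The log2 fold change was 1.17 (SE 0.19, edgeR adjusted p = 3.49e-07, DESeq2 adjusted p = 0.00032). H1-5, a linker histone and the most abundant gene of the group, stood at 1500 (replicate 1), 1222 and 1429 CPM on LN323 against 643, 854 and 714 CPM on LN521, again without overlap (log2 fold change 0.92, SE 0.17, edgeR adjusted p = 1.41e-05). H3C10, which codes for a core histone, had 426, 316 and 445 CPM on LN323 and 176, 234 and 150 CPM on LN521, with a log2 fold change of 1.11 (SE 0.18, edgeR adjusted p = 4.12e-07).

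A few members did not follow this size of change. H4C11 and H4C12 had log2 fold changes of 0.00 and 0.29 and did not pass the threshold. H1-1 passed in edgeR (log2 fold change 1.31) but its groups overlapped, with 23.4, 12.8 and 28.9 CPM on LN323 and 11.8, 13.0 and 5.37 CPM on LN521, and DESeq2 gave it an adjusted p of 0.47. Of the histone genes, 54 had groups that did not overlap, with LN323 above, against 12.8% of all genes of at least 1 CPM. DESeq2 passed 52 of them. With 1 library left out 26 (without LN323 replicate 1) to 56 (without LN323 replicate 2) passed, among them 37 without LN323 replicate 3 and 37 without LN521 replicate 1. With all 27 libraries 7 passed, and with the filterByExpr filter 0 passed, or 54 when LN323 replicate 2 was also left out. Coding sequences of histone copies are nearly identical, so reads may be split among copies and the value of a single copy is less certain than that of the class. The class sums were 1.69 (H4) to 1.90 (H2B) times as high on LN323. Splitting within a class cancels in these sums only if reads that match several copies were counted. That setting is not given in the sources used here.

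Promoters are shown for the 4 H2B genes with the smallest p-values, because these genes moved together. The letters are bases -150 to -31 before the transcription start in RefSeq (GRCh38.p14, the strand of the gene), and the capitals mark ATTTGCAT, the octamer that POU-domain factors bind, and CCAAT, the box that NF-Y binds, each on either strand:
H2BC14, chr6:27814872-27814991, plus strand: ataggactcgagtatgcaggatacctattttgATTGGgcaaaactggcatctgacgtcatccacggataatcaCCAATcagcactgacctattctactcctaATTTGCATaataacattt
H2BC26, chr1:228457953-228458072, plus strand: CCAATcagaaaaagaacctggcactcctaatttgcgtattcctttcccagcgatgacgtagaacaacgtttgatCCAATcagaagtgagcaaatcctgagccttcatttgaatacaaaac
H2BC10, chr6:26272781-26272900, plus strand: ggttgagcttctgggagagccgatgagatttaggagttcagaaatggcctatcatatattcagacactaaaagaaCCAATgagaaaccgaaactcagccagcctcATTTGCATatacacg
H2BC17, chr6:27893275-27893394, plus strand: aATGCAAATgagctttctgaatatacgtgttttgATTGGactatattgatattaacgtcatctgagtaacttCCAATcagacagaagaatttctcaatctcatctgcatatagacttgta
Of these, 3 hold the octamer and all 4 hold CCAAT. Within 250 bases before the start, ATTTGCAT was found on either strand in 14 of 18 H2B promoters and 11 of 13 H2A promoters, in 1 of 9 H3 promoters and in 0 of 6 H1 and 0 of 13 H4 promoters, against 1.66% of all 27305 promoters of the same length. CCAAT was found in 49 of 59 histone promoters against 33% of all promoters, and in none of the 59 did it overlap the octamer. H2A and H2B genes often lie head to head and then share the bases between them. The classes without the octamer in this window also rose, so the count describes the letters only. H2BC26, with no octamer in this window, had 95.6, 68.3 and 102 CPM on LN323 and 35.6, 51.6 and 30.3 CPM on LN521, which did not overlap.

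Of 10 histone genes that are not tied to replication, listed after the data had been seen, 3 were higher by edgeR (MACROH2A1, H2AX and H2AZ1), and DESeq2 passed 0 of the 10. H3-3A and H3-3B, which code for the replacement histone H3.3, had log2 fold changes of 0.19 and 0.19 and did not pass. Of 10 factors that transcribe histone genes or process the ends of their mRNAs, also listed after the data had been seen, 0 passed by edgeR and 0 by DESeq2. An unadjusted p under 0.05 was found in 2 of the 10 factors and in 4401 of all 38650 genes tested. SLBP, the protein that binds the stem-loop, had 67.0, 56.2 and 67.9 CPM on LN323 and 37.3, 47.9 and 41.7 CPM on LN521 without overlap (log2 fold change 0.59, SE 0.20, edgeR adjusted p = 0.097).

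**Figure D1:**
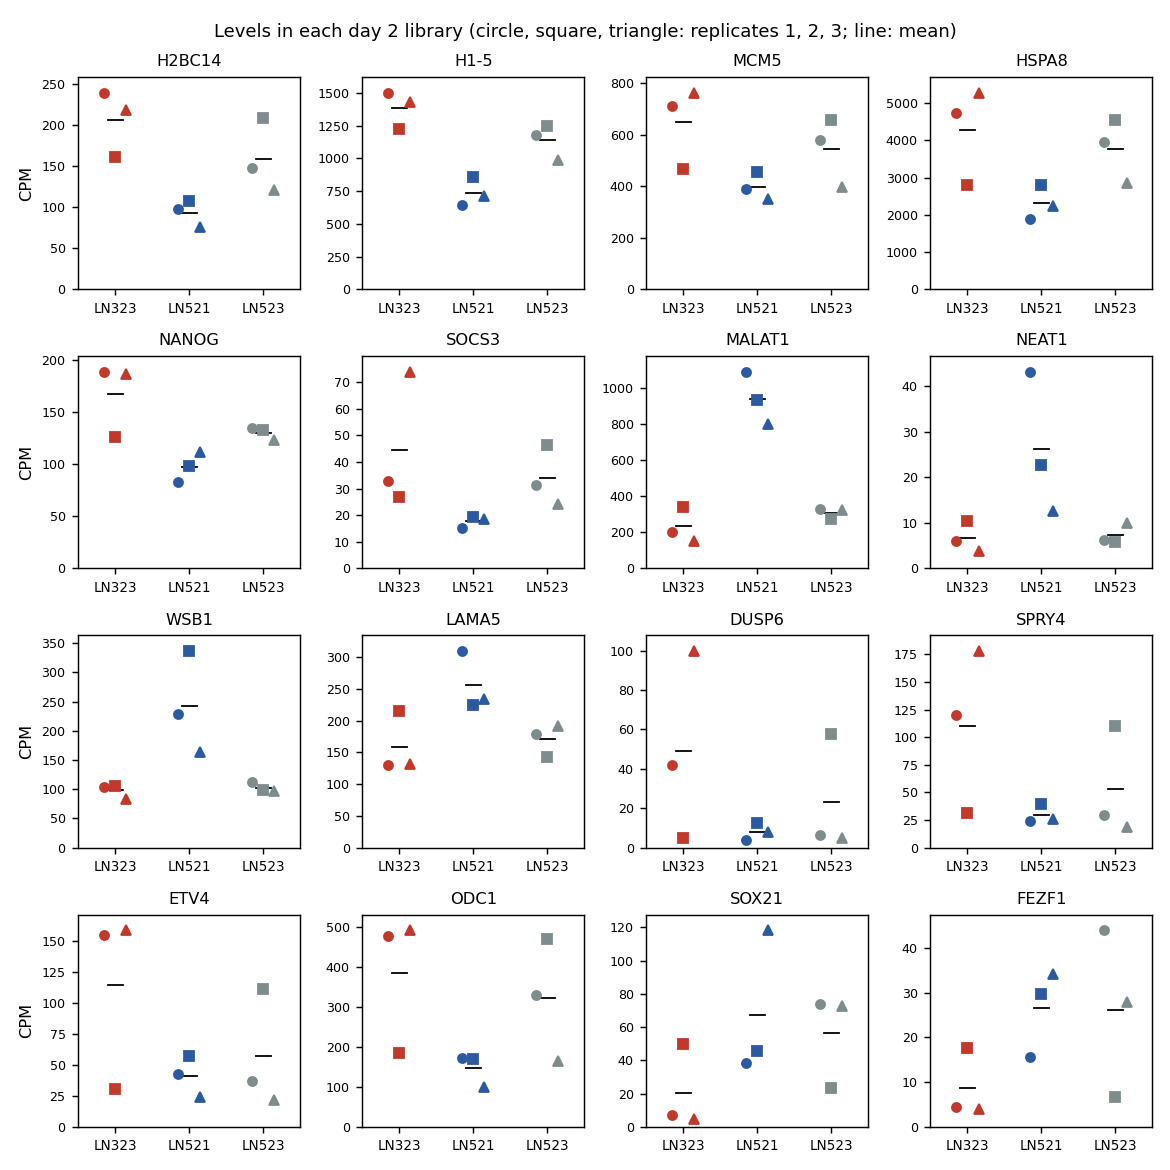
Levels of 16 genes in CPM (y axes, from 0) in each of the 9 day 2 libraries, grouped by matrix (x axes), with a line at the mean of each group. H2BC14, H1-5, MCM5, NANOG and SOCS3 lie higher and MALAT1, NEAT1, WSB1 and LAMA5 lie lower in each LN323 library than in each LN521 library, while in DUSP6, SPRY4, ETV4, SOX21 and FEZF1 LN323 replicate 2, the square, falls among the LN521 libraries.

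Of 30 genes of G1 and S phase, which license and copy DNA, 8 were higher and 0 were lower, 29 had a positive fold change, and the median was 0.51. The 8 were RRM2, which makes deoxynucleotides, MCM5, MCM2, MCM7 and MCM4 of the replicative helicase, GINS2 of the same machine, the sliding clamp PCNA, and the transcription factor E2F2. MCM5 stood at 713, 469 and 763 CPM on LN323 and at 390, 457 and 350 CPM on LN521. Its groups did not overlap, although LN323 replicate 2 came close to LN521 replicate 2 (log2 fold change 0.71, SE 0.17, edgeR adjusted p = 0.0037, DESeq2 adjusted p = 0.10). E2F2 had 19.9, 15.3 and 18.0 CPM on LN323 and 10.9, 11.3 and 6.66 CPM on LN521 and was the only one of the 8 that DESeq2 also passed (adjusted p = 0.019). In 16 of the 30 genes the groups did not overlap, with LN323 above, against 12.8% of all genes of at least 1 CPM. With 1 library left out 0 (without LN323 replicate 1 or replicate 3), 1 (without LN521 replicate 1), 4 (without LN521 replicate 3), 6 (without LN521 replicate 2) or 19 (without LN323 replicate 2) of the 30 passed, and with the filterByExpr filter 0 did. The letters TTTCCCGC, a form of the E2F element, were found on either strand within 250 bases before the start of 6 of the 24 genes with a promoter in RefSeq (1.42% of all promoters), and TTTGGCGC in 4 other promoters (0.553% of all).

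Of 30 genes of G2 and mitosis 0 were higher, 1 was lower and the median was 0.03. The one gene lower was MKI67, a marker of cycling cells, at 128, 154 and 120 CPM on LN323 and 365, 200 and 114 CPM on LN521. Its groups overlapped and most of its difference came from LN521 replicate 1 (DESeq2 adjusted p = 0.31). Whether the share of cells in S phase differed cannot be told apart from the RNA per cell in bulk libraries.

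Targets of FGF and ERK signalling gave large fold changes with a wide scatter between replicates. Of 26 genes, 10 were higher on LN323 and 1 was lower, with a median of 0.45. DUSP6, a phosphatase that switches ERK off, had 42.0, 5.08 and 99.7 CPM on LN323 and 3.87, 12.4 and 8.13 CPM on LN521. A gene on the other strand covers 28.6% of its exons, and the strand setting of the counting is not given in the sources used here. LN323 replicates 1 and 3 were far above LN521, whereas LN323 replicate 2 lay within the LN521 range (log2 fold change 2.99, SE 0.25, edgeR adjusted p = 3.5e-27, DESeq2 adjusted p = 0.28). SPRY4, an inhibitor of receptor signalling, showed the same pattern with 120, 31.7 and 178 CPM on LN323 and 24.3, 39.3 and 25.8 CPM on LN521. The transcription factor ETV4, an ERK target, had 154, 30.8 and 158 CPM on LN323 and 42.5, 56.7 and 24.3 CPM on LN521. In both genes LN323 replicate 2 fell inside the LN521 range, and neither passed in DESeq2 (adjusted p = 0.34 and 0.51).

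The members that did not depend on this library were fewer. FGF19, a secreted FGF, had 14.7, 5.83 and 18.5 CPM on LN323 and 3.55, 4.39 and 4.52 CPM on LN521 (log2 fold change 1.65, SE 0.31, edgeR adjusted p = 5.03e-05, DESeq2 adjusted p = 0.0055). SPRY2, a relative of SPRY4, had 32.3, 19.5 and 40.6 CPM on LN323 and 10.6, 19.0 and 12.6 CPM on LN521 (DESeq2 adjusted p = 0.023). Each of these was higher in each LN323 library than in any LN521 library. DUSP4, a nuclear phosphatase of ERK, was the same in kind with 6.43, 4.93 and 9.90 CPM on LN323 and 2.10 to 2.83 CPM on LN521. EPHA2, an ephrin receptor, had 41.0, 28.8 and 66.3 CPM against 21.2, 21.3 and 23.8 CPM. The remaining higher members, DUSP5, ETV5 and IL17RD, overlapped between the matrices and did not pass in DESeq2. FGFR3, an FGF receptor, was lower, with 18.1, 84.4 and 20.3 CPM on LN323 and 41.0, 53.3 and 152 CPM on LN521. Its groups overlapped through LN323 replicate 2. DESeq2 passed 4 of the 26 (FGF19, SPRY2, DUSP4 and EPHA2), and 0 passed with the filterByExpr filter or with all 27 libraries. With 1 library left out 4 (without LN323 replicate 3), 6 (without LN323 replicate 1) and 18 (without LN323 replicate 2) passed, and 8 to 12 without an LN521 library. In the LN523 libraries DUSP6 had 6.25, 57.6 and 5.04 CPM, so LN523 replicate 2 resembled LN323 replicates 1 and 3 in this gene.

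Immediate early genes, which respond to growth signals within minutes, did not move together: of 28, 2 were higher and 1 was lower. EGR1, a zinc finger factor, had 0.945, 4.24 and 2.96 CPM on LN323 and 37.4, 48.2 and 5.72 CPM on LN521. LN521 replicate 3 was near the LN323 libraries but above each of them (log2 fold change -3.27, SE 0.31, edgeR adjusted p = 4.5e-22, DESeq2 adjusted p = 0.036). MYC, a growth regulator, was higher, with 119, 63.4 and 161 CPM on LN323 and 39.2, 61.3 and 55.2 CPM on LN521. The groups of MYC did not overlap by a narrow margin at LN323 replicate 2, and DESeq2 did not pass it (adjusted p = 0.38). FOS, the partner of JUN, had 9.63, 3.64 and 15.3 CPM on LN323 and 20.2, 39.4 and 4.67 CPM on LN521 and did not pass. Of 25 genes of SRF and the actin skeleton, 0 passed by edgeR and 0 by DESeq2, and the median was 0.29. An unadjusted p under 0.05 was found in 6 of the 25 and in 4401 of all 38650 genes tested. Without LN323 replicate 2, 8 of the 25 were higher.

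Of 14 genes of gp130 and STAT3 signalling, which LIF-family cytokines use, 3 were higher, all of them SOCS feedback inhibitors. SOCS3 had 32.9, 27.0 and 73.8 CPM on LN323 and 15.2, 19.4 and 18.7 CPM on LN521, without overlap (log2 fold change 1.28, SE 0.22, edgeR adjusted p = 3.8e-06, DESeq2 adjusted p = 0.0066). SOCS1 had 22.2, 11.8 and 31.3 CPM on LN323 and 10.5, 7.84 and 7.26 CPM on LN521, also without overlap. SOCS2 overlapped, since LN323 replicate 2, at 5.38 CPM, lay inside the LN521 range of 3.43 to 5.80 CPM. The receptor LIFR had a log2 fold change of -0.41 and did not pass.

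Of 26 pluripotency genes 3 were higher on LN323 and 0 were lower, and the median was 0.14. An unadjusted p under 0.05 was found in 10 of the 26, and in 4401 of all 38650 genes tested. Without LN323 replicate 2, 7 were higher and 4 were lower, and without LN323 replicate 1 or replicate 3, 0 passed. NANOG (chromosome 12, positions 7787794 to 7799146), a core factor of the pluripotent state, had 188, 126 and 187 CPM on LN323 and 82.6, 98.4 and 111 CPM on LN521. The groups did not overlap, and both tools passed it (log2 fold change 0.77, SE 0.19, edgeR adjusted p = 0.0042, DESeq2 adjusted p = 0.012). L1TD1, an RNA-binding protein of stem cells, and SFRP2, a secreted WNT antagonist, also passed, but LN323 replicate 2 lay within the LN521 range of L1TD1 and, at 117 CPM, under each LN521 library of SFRP2. The other core factors did not pass, with log2 fold changes of 0.33 for POU5F1 and -0.04 for SOX2. Of 20 genes of the NODAL pathway 0 passed by edgeR or DESeq2 and 5 had an unadjusted p under 0.05, and of 15 genes of naive pluripotency 0 passed by either tool and 2 had such a p. Without LN323 replicate 2, 5 NODAL genes and 2 naive genes were higher. LNCPRESS1, a long non-coding RNA of pluripotent cells, was higher with 53.3, 23.5 and 71.2 CPM on LN323 and 11.5, 19.1 and 19.3 CPM on LN521. LINC-ROR, another RNA of this kind, had 6.70, 2.96 and 7.16 CPM against 1.80, 1.87 and 1.34 CPM. Neither of the RNAs overlapped between the matrices, and both passed in DESeq2 (adjusted p = 0.0016 and 0.02).

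Some genes of protein folding and turnover were higher on LN323. Of 14 heat shock genes 4 were higher and 0 lower, with a median of 0.41, and all 4 had groups that did not overlap. HSPA8, the constitutive HSP70 chaperone and one of the most abundant mRNAs, had 4734, 2808 and 5274 CPM on LN323 and 1892, 2794 and 2230 CPM on LN521 (log2 fold change 0.90, SE 0.16, edgeR adjusted p = 5.75e-06, DESeq2 adjusted p = 0.028). LN323 replicate 2 and LN521 replicate 2 were nearly level, and the other libraries were well apart. The co-chaperone DNAJA1, the nucleotide exchange factor HSPH1 and the mitochondrial chaperonin HSPD1 were the other members, with log2 fold changes of 0.80, 0.80 and 0.55. Of 19 genes of the unfolded protein response of the endoplasmic reticulum 4 were higher, namely CALR, DNAJB11, SDF2L1 and CRELD2, none of which passed in DESeq2. CALR, a folding chaperone of glycoproteins, had 1105, 730 and 1152 CPM on LN323 and 685, 768 and 496 CPM on LN521, and overlapped. Of 39 proteasome subunit genes PSMC4, PSMC2 and PSMA7 passed by edgeR and 0 by DESeq2. Of the 37 with at least 1 CPM 34 had a positive fold change (median 0.42), and in 21 the groups lay apart above and in 1 apart below, against 12.8% and 10.4% of all genes of that level. Without LN323 replicate 2, 22 proteasome genes, 11 of the unfolded protein response and 6 heat shock genes passed, whereas without LN323 replicate 3 none of the 3 lists had a gene past the threshold.

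Among metabolic genes a few members of each list passed. The median log2 fold change was 0.60 for metallothioneins and zinc handling, 0.37 for NRF2 targets, 0.34 for cholesterol synthesis and 0.28 for amino acid supply and the integrated stress response. ODC1, the enzyme that starts polyamine synthesis, had 479, 185 and 492 CPM on LN323 and 173, 171 and 99.5 CPM on LN521 (log2 fold change 1.46, SE 0.18, edgeR adjusted p = 6.12e-12, DESeq2 adjusted p = 0.23). LN323 replicate 2 was just above LN521. The paired amino acid transporter chains SLC7A5 and SLC3A2 were the 2 members higher among 27 genes of amino acid supply and the integrated stress response. SLC7A5 had 440, 172 and 591 CPM on LN323 and 255, 260 and 89.6 CPM on LN521, so that LN323 replicate 2 was below 2 LN521 libraries. Of 25 cholesterol synthesis genes 2 were higher, among them NSDHL, a late enzyme of the pathway. HMOX1 and NQO1, which NRF2 induces, were the 2 higher of 16 genes, and only NQO1 passed in DESeq2 (adjusted p = 0.014). Of 10 genes of metallothioneins and zinc handling 3 were higher. MT1G, which binds zinc and copper, had 167, 64.3 and 96.0 CPM on LN323 and 54.7, 50.1 and 54.3 CPM on LN521, without overlap (log2 fold change 0.95, DESeq2 adjusted p = 0.0066). MT1H and MT1X were the others, and metallothionein copies share long stretches of sequence. Of 23 hypoxia targets ADM and AK4 were higher and PPFIA4 was lower. Without LN323 replicate 2 the counts were 9 lower and 2 higher for hypoxia targets, 12 higher for cholesterol synthesis and 10 higher and 1 lower for amino acid supply.

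**Figure D2:**
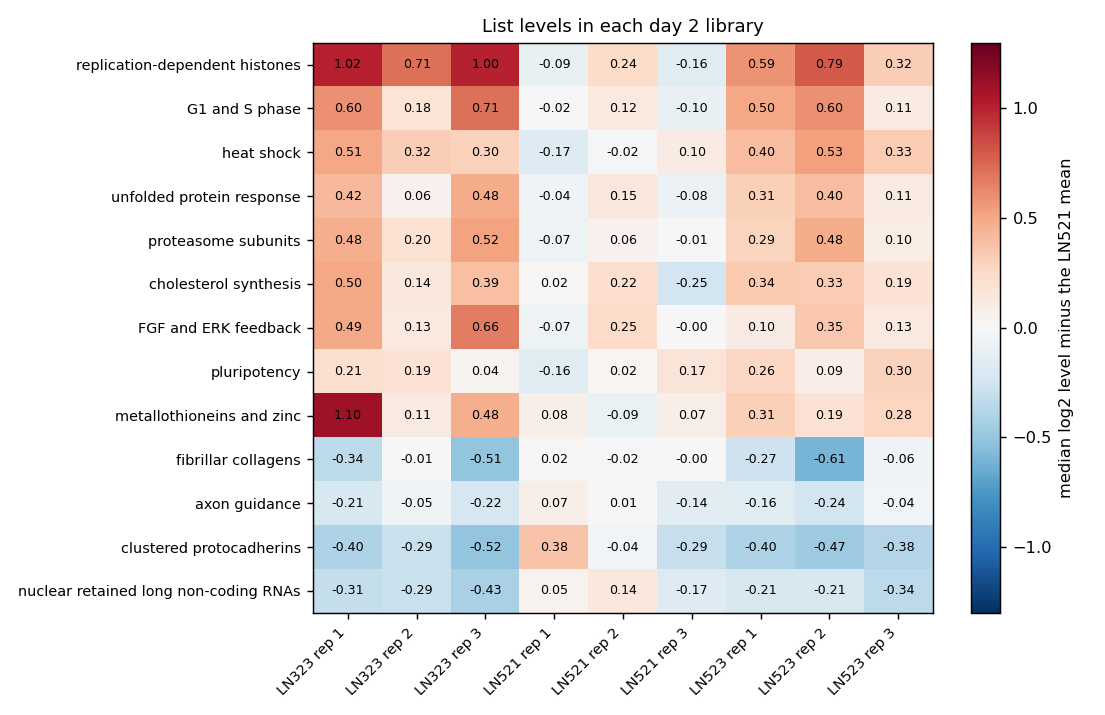
Median level of the members of 13 lists (rows) in each day 2 library (columns), as log2 CPM with 0.5 added minus the mean of the LN521 libraries. The histone row is 0.71 to 1.02 in the LN323 libraries and -0.16 to 0.24 in the LN521 libraries, while for the G1 and S phase row LN323 replicate 2 is at 0.18 beside 0.60 and 0.71.

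Few genes of the laminins and their receptors passed the test. Of 11 laminin chain genes of the cells, 1 was lower on LN323 and 0 were higher. LAMA5, which codes for the α5 chain, had 129, 215 and 132 CPM on LN323 and 309, 224 and 233 CPM on LN521. The groups lay apart, with LN323 replicate 2 just under the lowest LN521 library (log2 fold change -0.69, SE 0.18, edgeR adjusted p = 0.012, DESeq2 adjusted p = 0.14). LAMC1 and LAMB2, which code for the γ1 and β2 chains, had log2 fold changes of 0.09 and -0.07, and LAMA1 and LAMB1 both had -0.02. The chains of LN323 were expressed by the cells at a low level for α3 and a moderate one for γ3: per length, LAMA3 had a mean of 1.59 TPM on LN323 and 1.73 TPM on LN521 and LAMC3 had 19.5 and 19.4 TPM, whereas LAMC1 had 123 and 138 TPM. LAMC1, LAMB2, LAMA1, LAMB1, LAMA3 and LAMC3 did not pass the test.

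Of 14 laminin receptor genes 1 was higher, SDC1, a syndecan that carries heparan sulphate. It had 140, 101 and 146 CPM on LN323 and 74.9, 78.2 and 51.4 CPM on LN521, without overlap, and passed in both tools (log2 fold change 0.95, SE 0.19, edgeR adjusted p = 0.000167, DESeq2 adjusted p = 0.0051). ITGA6 and ITGB1, the integrin chains through which stem cells bind LN521, had log2 fold changes of 0.15 and 0.09. ITGA3, ITGB4, DAG1 and BCAM had -0.03, -0.13, 0.17 and -0.11. Of 14 integrins that bind other matrices ITGB5, a vitronectin receptor chain, was higher, with 320, 312 and 432 CPM on LN323 and 256, 247 and 204 CPM on LN521. Of 35 focal adhesion genes 3 were higher by edgeR, the adaptors NEDD9 and BCAR1 and the actin-linked CSRP1, and DESeq2 passed 0. With 1 library left out, 0 of the 35 passed without LN323 replicate 1 or 3 or LN521 replicate 1 or 3. Without LN521 replicate 2, 1 passed, and without LN323 replicate 2, 9 passed. Of 24 targets of YAP and TEAD, which respond to adhesion and tension, AMOTL1 was higher and RBMS3 was lower. DESeq2 passed 0 of these 24 targets and 0 of the 14 integrins that bind other matrices.

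Some matrix genes of the cells were lower on LN323. Of 20 fibrillar and related collagens 2 were lower and 0 were higher, and 17 of the 19 with at least 1 CPM had a negative fold change (median -0.34). COL11A1, a minor fibrillar collagen, had 32.1, 58.9 and 29.7 CPM on LN323 and 84.1, 68.2 and 72.9 CPM on LN521, which lay apart below, as 10.4% of all genes of at least 1 CPM did (log2 fold change -0.89, SE 0.20, edgeR adjusted p = 0.0015, DESeq2 adjusted p = 0.12). COL1A1 was the other and overlapped by a single library. Of 28 basement membrane and matrix glycoproteins FRAS1 and HSPG2 were lower and TNC was higher. HSPG2, the basement membrane proteoglycan perlecan, had 120, 169 and 100 CPM on LN323 and 304, 176 and 151 CPM on LN521, and LN323 replicate 2 lay inside the LN521 range. Clustered protocadherins, cell surface recognition proteins of neurons, had 2 lower of 53, and 39 of the 45 with at least 1 CPM had a negative fold change (median -0.46). The 2 lower were PCDHA5 and PCDHGA4, both at or under 3.26 CPM in each library, and the clusters share exons that count for several members. DESeq2 passed 0 of the list. In 13 of the 45 the groups lay apart below, against 10.4% of all genes of that level. The summed level was 197, 183 and 193 CPM on LN323 and 287, 224 and 189 CPM on LN521. LN521 replicate 3 thus lay inside the LN323 range, and LN521 replicate 1 was the highest.

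The smallest p-value among the lower genes in both edgeR and DESeq2 was that of the nuclear RNA MALAT1 (ENSG00000251562, chromosome 11, positions 65497640 to 65508073), a long non-coding RNA of nuclear speckles. It had 204, 343 and 153 CPM on LN323 and 1090 (replicate 1), 933 and 800 CPM on LN521, so the lowest LN521 library was above the highest LN323 library by a wide margin. The log2 fold change was -2.05 (SE 0.18, edgeR adjusted p = 4.37e-26, DESeq2 adjusted p = 2.6e-12). The LN523 libraries had 330, 274 and 324 CPM, within the range of LN323. An antisense gene covers 83.7% of its exons on the other strand, and the strand setting of the counting is not given in the sources used here, so reads of both genes cannot be told apart. NEAT1, the RNA that builds paraspeckles and lies next to it (chromosome 11, positions 65422774 to 65445540), had 6.07, 10.3 and 3.80 CPM on LN323 and 43.1, 22.8 and 12.6 CPM on LN521. It did not overlap either, and LN523 again lay with LN323 at 6.30, 5.74 and 9.93 CPM (log2 fold change -1.91, SE 0.27, DESeq2 adjusted p = 0.00051). MIAT, another long nuclear RNA, chosen after its values were seen, had 68.7, 88.9 and 46.0 CPM on LN323, 219, 277 and 233 CPM on LN521 and 111, 71.5 and 81.9 CPM on LN523. KCNQ1OT1, an imprinted nuclear RNA, was lower in edgeR but mainly through LN521 replicate 1 at 238 CPM beside 75.8 and 41.6 CPM.

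Of the 15 nuclear retained RNAs listed 3 were lower and 2 were higher, the latter LNCPRESS1 and LINC-ROR. The 1369 long non-coding RNAs with at least 1 CPM had a median log2 fold change of -0.46, against 0.06 for 13770 protein-coding genes. The share of all counts in long non-coding RNAs was 0.945%, 1.10% and 0.879% on LN323 and 1.67%, 1.44% and 1.20% on LN521. These did not overlap, and on LN523 the shares were 0.990% to 1.11%. Among the LN323 and LN521 libraries total counts were lowest in LN521 replicate 1, which also had the highest share. LN523 replicate 3 had fewer total counts, 27855193, and a share of 1.11%. The part of RNA quality or of library preparation in these shares was not tested.

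WSB1, a ubiquitin ligase subunit, fell by both tools. It had 105, 106 and 83.5 CPM on LN323 and 229, 336 and 163 CPM on LN521 (log2 fold change -1.27, SE 0.19, edgeR adjusted p = 1.27e-08, DESeq2 adjusted p = 3.3e-06). The LN323 libraries were close together and the LN523 libraries, at 112, 98.0 and 97.2 CPM, were level with them. Further genes with small p-values in both tools and groups apart, chosen after their values were seen, were PAPLN, CTSF, DNM1, GOLGA8A and DDX39B, all lower on LN323. Of 525 zinc finger genes named ZNF, 13 were lower and 1 was higher, against 1.37% lower and 1.13% higher among all genes tested. Of the 477 with at least 1 CPM, 60 lay apart below and 22 apart above, and among all genes of that level 10.4% lay apart below and 12.8% above.

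Of 29 genes of neuroectoderm and the eye field 2 were lower on LN323 and 0 were higher, while 9 of the 16 with at least 1 CPM had a positive fold change (median 0.04, and 0.02 without LN323 replicate 2). SOX21, a factor of neural progenitors, had 7.22, 49.6 and 4.70 CPM on LN323 and 38.1, 45.6 and 118 CPM on LN521 (log2 fold change -1.88, SE 0.24, edgeR adjusted p = 8.4e-12, DESeq2 adjusted p = 0.54). FEZF1, a forebrain factor, had 4.54, 17.6 and 3.89 CPM on LN323 and 15.6, 29.6 and 34.3 CPM on LN521. In both genes LN323 replicate 2 lay within the LN521 range. Of 18 genes of retinoic acid CYP26A1, which breaks it down, and CRABP2, which binds it, were lower, and both overlapped in the same way. PRODH, IRX2, NPTX1 and ENO2 also passed in edgeR with overlap and not in DESeq2.

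Further lower genes, named by their p-value, lay apart between the matrices. FAM20A, a secretory pathway pseudokinase, had 3.26, 15.8 and 2.57 CPM on LN323 and 22.9, 33.5 and 28.6 CPM on LN521 (log2 fold change -2.20, SE 0.26, edgeR adjusted p = 3.56e-14, DESeq2 adjusted p = 0.24). The nuclear receptor RORA had 17.3, 41.2 and 9.96 CPM against 43.7, 64.8 and 86.0 CPM, and OLIG3, a factor of dorsal spinal progenitors, had 2.43, 3.09 and 1.29 CPM against 4.48, 13.9 and 12.7 CPM. In each of these 3 genes the highest LN323 library was under the lowest LN521 library. Of 30 neuronal genes 3 were lower, among them STMN2, which overlapped, and the microtubule protein MAP2 (10.0, 16.1 and 8.89 CPM against 27.8, 22.4 and 19.3 CPM), which did not. Of the 19 neuronal genes with at least 1 CPM, 11 had a positive fold change (median 0.03). Of 42 axon guidance genes the receptors ROBO2 and EPHA3 were lower, and without LN323 replicate 2, 10 were lower and 3 were higher. ROBO2 had 6.97, 5.23 and 3.72 CPM on LN323 and 11.8, 13.2 and 9.12 CPM on LN521 and passed in DESeq2 (adjusted p = 0.0038). Single members of other pathways that were lower with groups apart were ID4, a BMP target, at 8.19, 18.2 and 8.89 CPM against 18.5, 20.1 and 35.9 CPM, and the NOTCH ligand DLL1 at 2.11, 5.83 and 1.01 CPM against 5.85, 6.40 and 14.3 CPM. Of the WNT genes FZD7 and SFRP2 were higher and FRZB and LGR4 were lower, of 38.

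The genes with the largest fold changes were mostly of low level. Among the rises, the transcription factor FOXL2 had 1.62, 0.349 and 2.68 CPM on LN323 and 0.0994 to 0.233 CPM on LN521, and EMX1, a forebrain factor, had 0.967, 0.847 and 3.86 CPM against 0.183 to 0.495 CPM. ACTL8, an actin-like gene, had 2.07, 0.847 and 2.01 CPM against 0.249 to 0.524 CPM. In these 3 genes the groups did not overlap, but DESeq2 passed none of them (adjusted p = 0.059, 0.14 and 0.099). FOXJ1, the factor of motile cilia, stood higher at 12.0, 5.23 and 16.9 CPM on LN323 and 4.60, 4.48 and 2.54 CPM on LN521 and passed in both tools (log2 fold change 1.64, SE 0.32). SHISAL1, LHFPL6 and MAPK8IP2, with log2 fold changes of 1.49, 1.33 and 1.31, also lay apart and passed in both. SHISAL1 had 20.4, 10.0 and 27.1 CPM on LN323 and 7.51, 8.91 and 4.92 CPM on LN521.

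Among the falls, the synaptic adhesion gene LRRTM2 had 0 to 0.09 CPM on LN323 and 3.06, 0.457 and 0.273 CPM on LN521, and the galactosyltransferase gene B3GALT2 had 0 to 0.0498 CPM against 2.39, 0.594 and 0.0497 CPM. Both were highest in LN521 replicate 1, and at these levels a fold change rests on a few counts in LN323. The bitter taste receptor genes TAS2R3, TAS2R19 and TAS2R31 were also lower, with at most 0.382 CPM on LN323 and at most 2.27 CPM on LN521, and the groups of TAS2R3 overlapped. GREB1L, a gene of kidney and inner ear development, had 0.990, 0.698 and 0.587 CPM on LN323 and 2.59, 4.39 and 4.87 CPM on LN521 without overlap (log2 fold change -2.37, SE 0.45, DESeq2 adjusted p = 0.000191). GSAP, which binds the γ-secretase complex, had 0.315, 2.29 and 0.280 CPM against 4.02, 7.79 and 3.58 CPM. LHX5, a homeobox factor of the forebrain, had 0.360, 1.82 and 0.475 CPM against 1.28, 9.60 and 15.8 CPM, and overlapped at LN521 replicate 1.

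**Figure D3:**
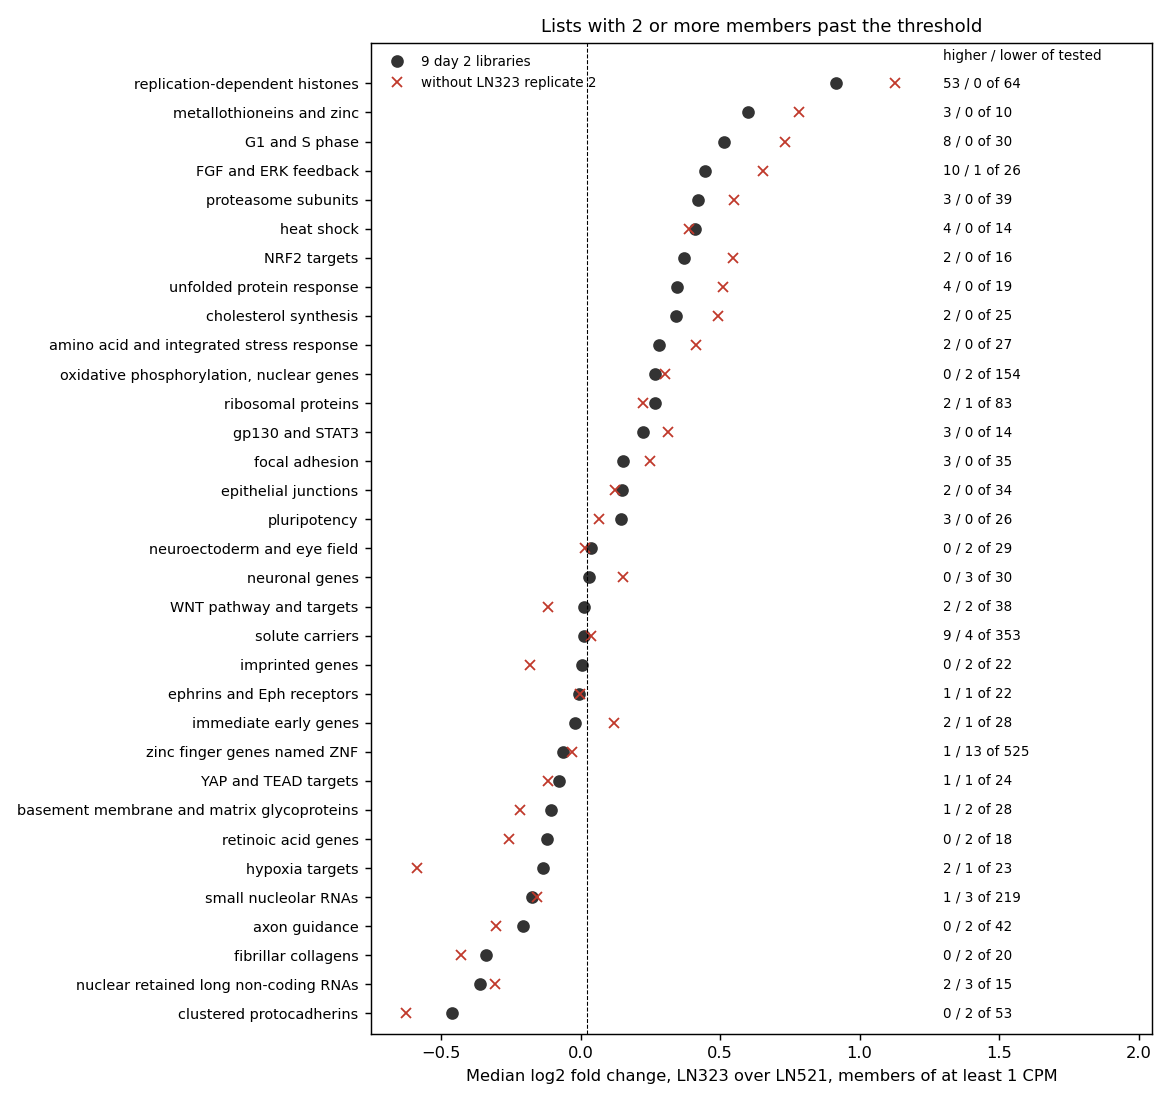
Median log2 fold change (x axis) of the members with at least 1 CPM in each list with 2 or more members past the threshold and 8 or more of that level (rows), over the 9 day 2 libraries (dots) and without LN323 replicate 2 (crosses), with the counts higher and lower on the right and the median of all genes as a dashed line. The histones have the highest median at 0.91 and the clustered protocadherins the lowest at -0.46, and most crosses lie further from the dashed line than the dots.

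Lists with other roles had few or no members past the threshold by edgeR: 0 of 25 p53 targets, 0 of 21 claudins, 0 of 13 hedgehog genes, 0 of 25 surface ectoderm genes and 0 of 14 neural crest genes. DESeq2 passed none of these either. At an unadjusted p under 0.05 there were 5 p53 targets, 2 claudins, 3 hedgehog genes, 4 surface ectoderm genes and 2 neural crest genes. Among all 38650 genes tested, 4401 had such a p. No HOX gene of 21 reached 1 CPM. Of 83 ribosomal protein genes 2 were higher and 1 was lower, although 80 had a positive fold change with a median of 0.27. Their summed level was 74464, 78881 and 79114 CPM on LN323 and 54168, 59895 and 83305 CPM on LN521, so LN521 replicate 3 was above each LN323 library. In 8 of the 83 the groups lay apart above and in 1 apart below, against 12.8% and 10.4% of all genes of at least 1 CPM. Of 154 nuclear genes of oxidative phosphorylation 0 were higher and 2 were lower by edgeR, and DESeq2 passed 4. Among the 83 of them with at least 1 CPM 73 were positive with a median of 0.27. In 38 of these 83 the groups lay apart above and in 3 apart below, against the same 12.8% and 10.4%. Their rise was thus broad, though few members passed the threshold.

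The same genes were followed at later days. The first comparison used LN523 libraries, which belong to neither group, although those of day 2 entered the same fit. In LN523 cultures, 84.1% of the 435 higher genes with at least 1 CPM had a lower fitted level at day 22 than at day 2, with a median log2 fold change of -1.18, against 52.7% and -0.07 among all 16285 genes. Of the 498 lower genes 48.0% were lower at day 22. Induction towards neural cells began after day 2. Of 60 histone genes 58 were lower at day 22, with a median of -1.12.

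**Figure D4:**
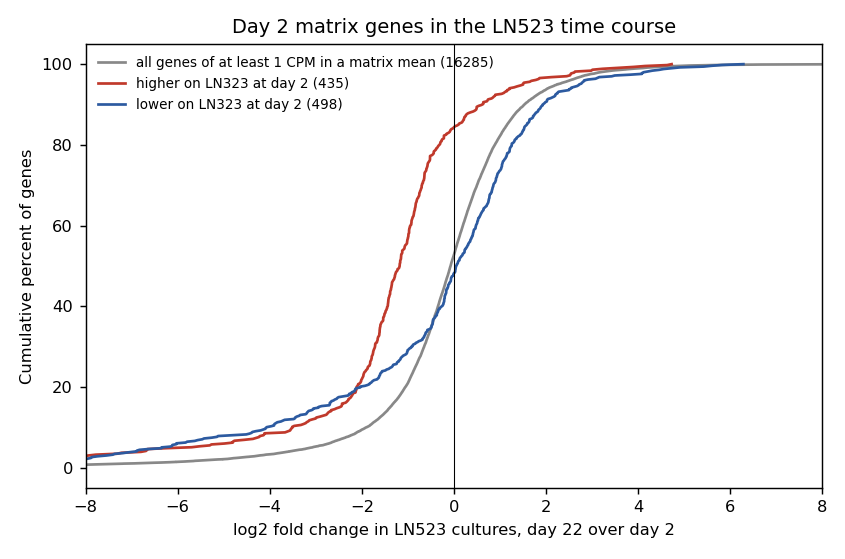
Cumulative percent of genes (y axis) by their log2 fold change in LN523 cultures from day 2 to day 22 (x axis) for genes higher on LN323 at day 2 (red), genes lower on LN323 (blue) and all genes of at least 1 CPM (grey). The red line reaches 84.1% at 0, where the grey line is at 52.7% and the blue line at 48.0%.

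The day 2 difference was not carried to later days as a whole. At day 22, 50.1% of the genes higher on LN323 at day 2 were again positive (47.6% of all genes), and at day 32, 38.6% (47.0% of all). Of the lower genes 74.7% were again negative at day 22 (52.4% of all), whereas 58.4% were positive at day 32 (47.0% of all). The change of the LN323 to LN521 difference between days 2 and 22 passed the threshold in 412 of 42785 genes (0.963%, of which 0.654% more positive at day 2), and that between days 2 and 32 in 542 of 43294 genes (1.25%). These tests share the day 2 libraries with the day 2 comparison and with each other. Histone genes made up 44 of the 412 genes and 4 of the 542 genes. Their median fold change on LN323 was 0.91 at day 2, -0.38 at day 22, with 4 of 60 positive, and 0.21 at day 32, with 52 of 60 positive. For MALAT1 the log2 fold change was -2.05 at day 2, -0.66 at day 22 and 0.19 at day 32, and for SOCS3 it was 1.28 at day 2 and 1.51 at day 22, with an edgeR adjusted p of the change of 1.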

How the data were processed

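RNA-seq was done on total RNA depleted of ribosomal RNA with a stranded kit. The authors trimmed reads with cutadapt, aligned them with STAR 2.5.2b to GRCh38 and counted them per Ensembl gene with featureCounts 1.5.1. The strand and multi-mapping settings are not given in the sources used here. The deposited counts are whole numbers with ribosomal RNA and mitochondrial genes left out, and the deposited TPM values, from the same counts, were used only to set levels of different genes side by side. Counts of the 9 day 2 libraries were fitted with edgeR 4.0.16 (R 4.3.3, TMM scaling, quasi-likelihood test, terms for matrix and for replicate number, genes with a count sum over 1), with Benjamini-Hochberg adjustment. The later days were fitted together with day 2 in 18 libraries. DESeq2 1.42.0, other filters, RLE scaling, all 27 libraries, no replicate term and each library left out were the alternatives, and the steps were tested on simulated data. Gene positions and types came from GENCODE 44 (43052 of 44852 genes matched). Named genes were, among those past the threshold with at least 1 CPM and one sign in all 3 lanes, the 15 largest rises, the 15 largest falls and the 10 smallest p-values of protein-coding genes and the 5 largest changes of other biotypes, with up to 8 members past the threshold and the 3 most abundant members of each list and all laminin chains and receptors. The text gives a selection of them, and genes outside this rule were chosen after their values were seen. The genes, lists and tests were chosen with earlier results of these data known. Some members of the lists are not reported here.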

Additional observations from a re-analysis of the deposited data

Results flagged for a closer look

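The difference between LN323 and LN521 changed with the day of culture in 412 genes between days 2 and 22 and in 542 genes between days 2 and 32, by the interaction test of edgeR. The values below are the log2 difference at day 2 minus that at the later day, for genes named by their size of change or p-value, and all share the day 2 libraries. Each group had 3 libraries, so no library was tested as standing apart.

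Against day 22, the day 2 difference was more positive for the phosphatase DUSP4 by 2.08, for FGF19 by 2.09, for SOCS1 by 2.09, for MAPK8IP2 by 1.75, for ODC1 by 1.52 and for LHFPL6 by 1.47. It was more negative for B3GALT2 (-6.12), the long non-coding RNA ENSG00000254556 (-4.80), EGR1 (-3.14), RBM24 (-3.03), GREB1L (-1.78), FAM20A (-1.71) and RORA (-1.57).

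Against day 32, the day 2 difference was more positive for EMX1 by 3.49, for SLC30A2 by 2.99, for DUSP4 by 2.83, for FGF19 by 1.67, for ODC1 by 1.48 and for LHFPL6 by 1.35. It was more negative for C16orf54 (-6.69), ROR1-AS1 (-5.32), TAS2R3 (-5.29), B3GALT2 (-5.12), LRRTM2 (-4.30), RBM24 (-3.18), EGR1 (-3.06), GREB1L (-2.05), FAM20A (-1.94), RORA (-1.75), PRODH (-1.54) and WSB1 (-1.42). B3GALT2, LRRTM2, TAS2R3 and ROR1-AS1 were near 0 CPM on LN323 at day 2, so their values rest on few counts.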

How the results depend on the processing

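For LN323 against LN521 at day 2, 967 genes passed. The count was 44 with all 27 libraries fitted together and 0 with at least 10 counts in every library (of 16294 genes, 2458 at an unadjusted p under 0.05) or with the filterByExpr filter, and it ranged from 124 to 3439 when 1 library was left out. It stayed within 1.5 times with RLE scaling, DESeq2, no filter and only LN323 and LN521 libraries. For DESeq2 only the number was alike, since 394 of its 897 genes were shared with edgeR. Counts in at most 3 of the 9 libraries were all that 479 of the 897 had. Alternatives chosen after seeing the data gave 2 genes with the filterByExpr filter and no replicate block, 2679 with that filter without LN323 replicate 2, and 967 with a robust spread. For the change from day 2 to day 22 the 412 genes became 105 by DESeq2, 9 with all 27 libraries, 0 with at least 10 counts in every library (1195 unadjusted) and 0 with filterByExpr (1789 unadjusted), and 156 to 1288 with 1 library left out. For day 32 the 542 genes became 209 by DESeq2, 13 with all 27 libraries, 0 with at least 10 counts (2131 unadjusted) and 0 with filterByExpr (2870 unadjusted), and 96 to 1073. The replicate number is a sequencing lane. Same-numbered LN323 and LN521 libraries had correlations of 0.23, -0.36 and -0.24 of their deviations, and unlike-numbered ones had -0.48 to 0.46. Whether same-numbered libraries share more than the lane cannot be told from these values. Without the replicate block, 1476, 133 and 275 genes passed in the comparison at day 2 and the changes to day 22 and day 32. Of 140 named genes that passed, 57 also passed in DESeq2, 140 with RLE scaling, 15 with all 27 libraries and 43 to 139 with 1 library left out, and none changed direction under any setting tried. The causes of these shifts were not tested.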

Other observations

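Gene groups not described above moved little at day 2. The counts in this paragraph stand beside 1.13% higher and 1.37% lower among all genes tested. Of 353 solute carrier genes 9 were higher on LN323 and 4 were lower, with a median log2 fold change of 0.01 among the 258 with at least 1 CPM. SLC39A14, a zinc and manganese importer, had 576, 259 and 671 CPM on LN323 and 231, 297 and 184 CPM on LN521, so that LN323 replicate 2 fell within the LN521 range. Of 219 small nucleolar RNA genes 1 was higher and 3 were lower, and 41 of the 53 with at least 1 CPM had a negative fold change (median -0.17). Of 22 imprinted genes 2 were lower, among them CDKN1C, an inhibitor of the cell cycle, with a log2 fold change of -1.08. KDR, a receptor of VEGF that the H1 cells of all 6 libraries expressed, had 307, 229 and 276 CPM on LN323 and 177, 202 and 160 CPM on LN521, which did not overlap (log2 fold change 0.59).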
